A study of Rattus norvegicus and Mus musculus with 34 samples.

Results

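Glycolysis splits glucose into pyruvate, and most of its steps exist as isoforms that are encoded by separate genes and used by different tissues. The members described here were 32 genes: the glucose transporters Slc2a1, Slc2a3 and Slc2a4, the hexokinases, phosphofructokinases and their bifunctional regulators, the enzymes from aldolase to lactate dehydrogenase, the lactate transporters Slc16a1 and Slc16a3, and the pyruvate dehydrogenase kinases Pdk1 to Pdk4. They were a list of symbols, taken from 20022 genes in the rat tables and 51912 in the mouse table, and all 32 were present in both. By the known use of each isoform, 4 were set down as muscle-type (Slc2a4, Pfkm, Pgam2, Eno3), 6 as leukocyte-type (Slc2a3, Hk3, Pfkl, Pfkp, Pgam1, Eno1) and 22 as other members.

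The rat samples were healing tissue from a periodontal bone defect in the mandible of wild-type male Sprague-Dawley rats of 6 to 8 weeks, taken at days 3, 7 and 14. The inferior alveolar nerve was intact in sensory nerve+ rats and had been transected in sensory nerve− rats. Each group held 4 rats per day, except for 3 sensory nerve+ rats on day 3. The mouse samples were RAW264.7 cells, a macrophage-like line, stimulated for 6 h with 100 ng/ml lipopolysaccharide (LPS), 6 samples without and 5 with 10 nM calcitonin gene-related peptide (CGRP), a neuropeptide of sensory nerves. The sources used here do not say whether the macrophage samples were separate cultures, so p-values of that comparison may cover technical spread only.

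As background, skeletal muscle takes up glucose through the insulin-responsive transporter Slc2a4 and runs glycolysis with muscle enzymes such as Pfkm, Pgam2 and Eno3. Activated macrophages and neutrophils rely heavily on glycolysis and use Slc2a1 and Slc2a3 for uptake, Hk3 for the first phosphorylation, and Pfkl, Pgam1 and Eno1 further down. Pyruvate dehydrogenase kinases hold back the conversion of pyruvate to acetyl-CoA in mitochondria. Pdk1, Slc2a1, Ldha, Pgk1 and Slc16a3 are also known targets of hypoxia-inducible factors.

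The rat libraries held 14854389 to 18742274 counts and the macrophage libraries 55614185 to 71538840 reads. Rat values are CPM, counts scaled to a common library size with the trimmed mean of M values (TMM), and fold changes are log2 values from edgeR's quasi-likelihood test with Benjamini-Hochberg adjustment over all genes tested. The labels call the rat samples mixed cells, and the other tissues varied between libraries. Erythroid genes took 0.259% to 48.7% of the counts (median 6.43%). All 20 skeletal muscle markers were detected, with a summed level of 43.3 to 104 CPM on day 3 of the sensory nerve+ group, 9189 to 33800.0 CPM on day 7 and 387 to 42420.0 CPM on day 14. In the sensory nerve− rats the sums were 31.1 to 602, 3339 to 59500.0 and 353 to 11490.0 CPM. The sum of 18 myeloid markers lay between 712 and 8256 CPM over all rats, and 0 of those markers were at 0 in all rats. In bulk tissue, fewer cells of a type and less RNA per cell cannot be told apart.

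The promoters of Pgam2 and Eno3, which rose in at least 2 comparisons, and of Pgam1 and Ldha, which fell in at least 1, are shown so that the sequences before the genes can be read beside their levels. RefSeq gives a start for 29 of the 32 members, with 33 windows of 250 bases before it (rat assembly GRCr8, which is not the assembly the reads were aligned to). In Pgam2 and Eno3, capitals mark CANNTG, the E-box core that myogenic factors are known to bind. In Pgam1 and Ldha, capitals mark ACGTG, part of the hypoxia response element, or its reverse complement CACGT, since both strands were searched. The Pgam2 window is at chr14:84897875-84898124 (minus strand), Eno3 at chr10:55868936-55869185, Pgam1 at chr1:250672902-250673151 and Ldha at chr1:106507842-106508091 (all plus strand).
Pgam2: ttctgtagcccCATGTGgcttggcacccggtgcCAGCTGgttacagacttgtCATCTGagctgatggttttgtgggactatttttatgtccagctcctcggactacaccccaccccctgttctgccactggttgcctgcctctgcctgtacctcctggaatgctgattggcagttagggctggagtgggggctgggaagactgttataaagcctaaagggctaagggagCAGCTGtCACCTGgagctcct
Eno3: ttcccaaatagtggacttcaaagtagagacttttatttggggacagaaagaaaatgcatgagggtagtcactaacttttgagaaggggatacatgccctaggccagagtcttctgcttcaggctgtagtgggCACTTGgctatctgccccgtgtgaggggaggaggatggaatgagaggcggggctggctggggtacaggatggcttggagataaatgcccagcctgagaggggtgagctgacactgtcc
Pgam1: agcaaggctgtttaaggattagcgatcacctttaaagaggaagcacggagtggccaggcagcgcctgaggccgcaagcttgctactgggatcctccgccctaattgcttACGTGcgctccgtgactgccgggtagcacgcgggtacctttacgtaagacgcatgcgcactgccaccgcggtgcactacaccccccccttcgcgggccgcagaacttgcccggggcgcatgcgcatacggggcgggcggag
Ldha: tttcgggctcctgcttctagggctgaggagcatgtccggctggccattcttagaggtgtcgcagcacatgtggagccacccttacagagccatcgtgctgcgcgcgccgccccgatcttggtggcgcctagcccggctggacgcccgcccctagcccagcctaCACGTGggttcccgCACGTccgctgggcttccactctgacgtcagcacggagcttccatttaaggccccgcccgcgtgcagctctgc

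CANNTG was found 5 times in Pgam2, 3 times in Ldha, 1 time in Eno3 and 0 times in Pgam1. It was in 17 of the 33 member windows (51.5%) and in 65.5% of 33469 rat promoter windows of the same length. ACGTG was found 3 times in Ldha, 1 time in Pgam1 and 0 times in Pgam2 and Eno3. It was in 14 of the 33 member windows (42.4%) and in 16.6% of all windows. GCGTG, the other common hypoxia response core, was in 13 member windows (39.4%) and 25.9% of all windows, and a MEF2 site in 1 member window (3.03%) and 1.68% of all. The motifs can overlap, since CACGTG holds CANNTG and ACGTG. Both strands were counted, so 1 CACGTG counts 2 times for ACGTG, as in Ldha and Pdk2. The other members called from day 3 to day 7 of the sensory nerve+ group did not share these counts. Of those that rose, Pfkm, Pdk2 and Pdk4 held CANNTG 0, 1 and 0 times and ACGTG 1, 2 and 0 times. Of those that fell, Slc2a1 held ACGTG 1 time, and Pfkl, Eno1 and Slc16a3 held it 0 times. CANNTG was found 2 times in Pfkl and 3 times in 1 of the Eno1 windows. A match is a run of letters and not a measured binding site.

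All 4 muscle-type isoforms rose from day 3 to day 7 in the sensory nerve+ group. Pgam2, the muscle phosphoglycerate mutase, whose promoter is shown above, measured 2.48, 1.95 and 1.59 CPM on day 3 of the sensory nerve+ group and 83.1, 139, 37.8 and 189 CPM on day 7. All day 7 rats lay above all day 3 rats, and the log2 fold change was 5.84 ± 0.64 (SE; edgeR, adjusted p = 0.00528). Eno3, the muscle enolase, rose from 19.8, 7.67 and 11.97 CPM to 433, 706, 201 and 717 CPM, a log2 fold change of 5.33 ± 0.62 (edgeR, adjusted p = 0.00593). Slc2a4, the insulin-responsive glucose transporter, measured 1.11, 1.10 and 1.80 CPM on day 3 and 46.6, 56.2, 24.9 and 101 CPM on day 7 (log2 fold change 5.45 ± 0.57, edgeR, adjusted p = 0.00407). Here too the days did not overlap. For these and later statements of overlap, the share of all genes separated in this way is not given. Pfkm, the muscle phosphofructokinase, measured 27.1, 41.5 and 27.4 CPM on day 3 and 259, 356, 156 and 319 CPM on day 7. Its log2 fold change of 3.13 ± 0.33 was the smallest of the 4 (edgeR, adjusted p = 0.00449).

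Of the 6 leukocyte-type isoforms, 3 fell over the same days. Pgam1, the phosphoglycerate mutase of most non-muscle tissues, fell from 993, 465 and 525 CPM on day 3 to 211, 158, 166 and 221 CPM on day 7 in the sensory nerve+ group (log2 fold change −1.76 ± 0.31, edgeR, adjusted p = 0.0218). Eno1, the widely expressed enolase, fell from 2687, 1038 and 1239 CPM to 521, 465, 349.9 and 475 CPM (log2 fold change −1.83 ± 0.37, edgeR, adjusted p = 0.0331). Pfkl, the liver-type phosphofructokinase that neutrophils also use, fell from 273, 114 and 119.9 CPM to 48.1, 39.4, 58.4 and 49.7 CPM (log2 fold change −1.74 ± 0.34, edgeR, adjusted p = 0.031). In all 3 genes replicate 1 of day 3 was the highest rat, and the lowest day 3 rat was still above the highest day 7 rat. The other leukocyte-type members did not pass the test. Slc2a3, a high-affinity glucose transporter, measured 85.7, 40.2 and 40.9 CPM on day 3 and 29.8, 26.1, 25.5 and 30.2 CPM on day 7 (log2 fold change −0.95, edgeR, adjusted p = 0.0958). Hk3, the hexokinase of myeloid cells, measured 152, 53.7 and 130.0 CPM and then 99.8, 72.4, 24.1 and 42.5 CPM (edgeR, adjusted p = 0.362). The ranges of Hk3 overlapped. Pfkp, the platelet-type phosphofructokinase, measured 76.9, 48.8 and 71.5 CPM and then 46.5, 44.8, 20.7 and 40.2 CPM (edgeR, adjusted p = 0.173).

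**Figure D1:**
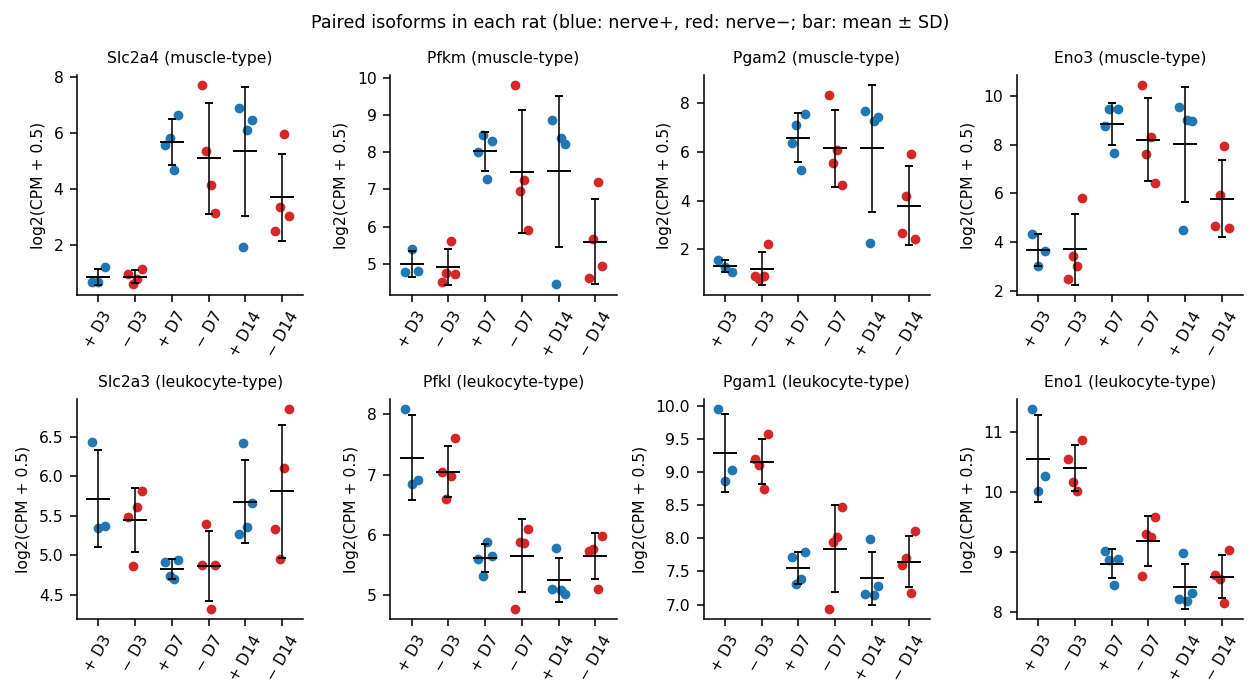
Levels of the 4 muscle-type genes (top) and their leukocyte-type partners (bottom) as log2(CPM + 0.5), 1 point per rat, with the mean and SD of each nerve group (+ blue, − red) and day (D3, D7, D14). The muscle-type genes are low on day 3, and Pgam1, Pfkl and Eno1 are highest on day 3, whereas the Slc2a3 ranges of day 3 and day 14 overlap in both nerve groups.

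Among the other members, a glucose transporter, a lactate transporter and 2 kinases passed the test between days 3 and 7 of the sensory nerve+ group. Slc2a1, the basal glucose transporter, fell from 219, 94.95 and 90.9 CPM to 30.97, 25.2, 23.04 and 25.3 CPM (log2 fold change −2.33 ± 0.34, edgeR, adjusted p = 0.012). Slc16a3, which exports lactate from glycolytic cells, fell from 295, 83.8 and 71.8 CPM to 25.5, 21.9, 9.79 and 33.7 CPM (log2 fold change −2.69 ± 0.61, edgeR, adjusted p = 0.0472). Neither gene overlapped between the days. The Slc16a3 call was lost in all 7 fits with 1 rat left out (edgeR, adjusted p from 0.0512 to 0.133), and without day 3 replicate 1 its log2 fold change was −1.78. Pdk2 rose from 13.1, 20.2 and 16.6 CPM to 56.1, 65.8, 38.1 and 70.8 CPM (log2 fold change 1.84 ± 0.25, edgeR, adjusted p = 0.0103). Pdk4, the kinase that fasting induces in muscle, rose from 0.785, 3.38 and 1.95 CPM to 14.8, 44.6, 17.4 and 75.7 CPM (log2 fold change 4.25 ± 0.80, edgeR, adjusted p = 0.0279). In both kinases the days did not overlap. The hypoxia-responsive Pdk1 measured 85.9, 29.2 and 30.2 CPM and then 17.3, 19.6, 18.6 and 16.7 CPM without passing the test (edgeR, adjusted p = 0.0837).

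In all, 6 of 32 members rose between day 3 and day 7 of the sensory nerve+ group and 5 fell, where 4.88% of the 15016 genes tested rose and 1.79% fell. The median log2 fold change was −0.73 over the members and 0.05 over all genes tested. The 6 that rose were the 4 muscle-type genes, Pdk2 and Pdk4, and the 5 that fell were Slc2a1, Pfkl, Pgam1, Eno1 and Slc16a3. Over the same days all 20 skeletal muscle markers rose, with a median log2 fold change of 8.48, and 0 of 18 myeloid markers passed the test in either direction, with a median of −0.70. The part of muscle content in the rise was not tested. The count of 11 members called went to 7 without day 3 replicate 1, 5 without day 3 replicate 3, 7 without day 7 replicate 1, 4 without day 7 replicate 2 and 7 without day 7 replicate 4. In each of these fits at least 4 of the calls were higher on day 7. Slc2a4, Pfkm, Pgam2 and Eno3 passed in all 7 fits with 1 rat left out, and Slc2a1, Pdk2, Pgam1, Pfkl, Pdk4 and Eno1 in 6, 4, 4, 3, 3 and 2 of them.

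**Figure D2:**
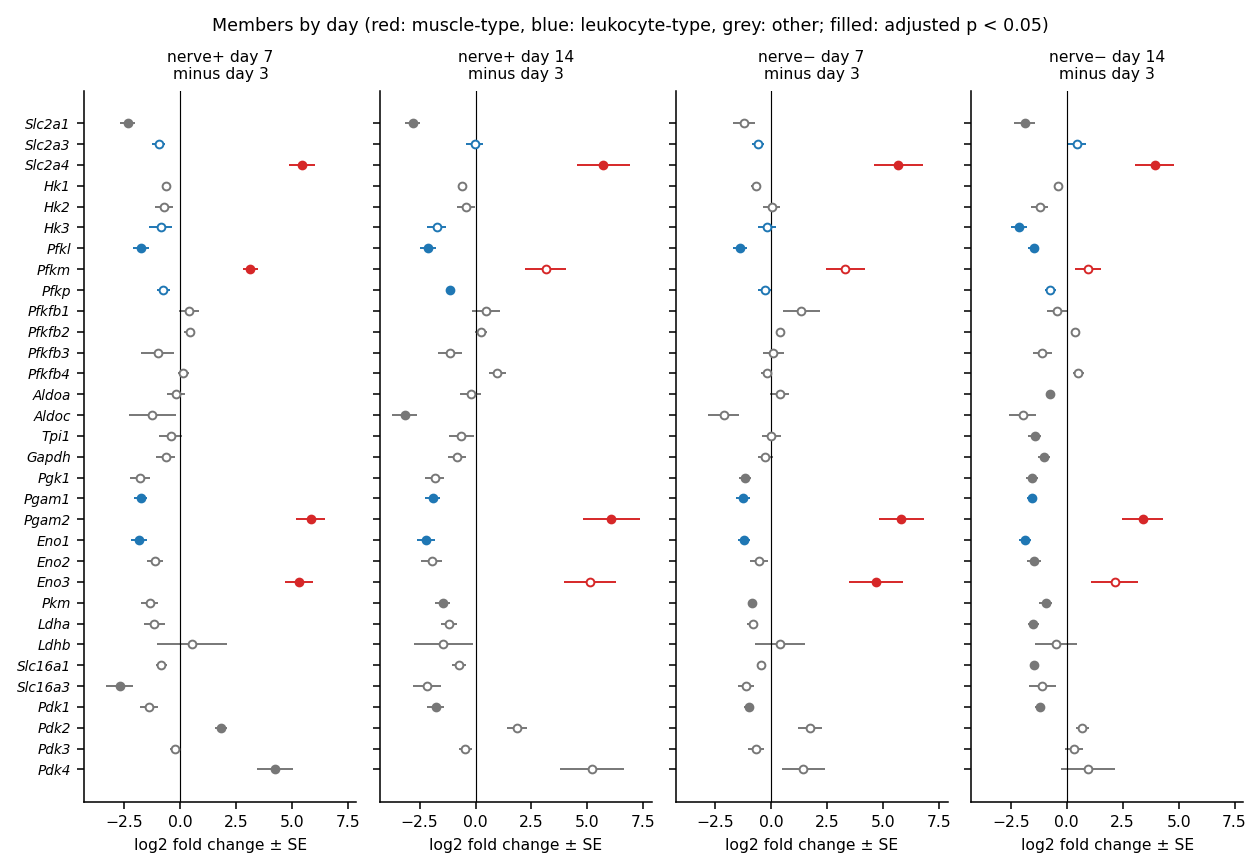
Log2 fold change with its SE for the 32 members in the 4 comparisons against day 3, with muscle-type genes in red, leukocyte-type in blue, others in grey, and filled points for an adjusted p under 0.05. The muscle-type genes lie to the right of 0 in all 4 panels, and Pfkl, Pgam1 and Eno1 lie to the left and are filled in all 4.

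By day 14 the sensory nerve+ rats still had high muscle-type isoforms, except for replicate 2. Pgam2 measured 203, 4.25, 153 and 172 CPM (log2 fold change over day 3 6.06 ± 1.27, edgeR, adjusted p = 0.0444) and Slc2a4 119, 3.30, 68.95 and 87.5 CPM (5.71 ± 1.18, edgeR, adjusted p = 0.0438). Eno3 was at 752, 21.9, 518 and 511 CPM and just missed the threshold (log2 fold change 5.12 ± 1.16, edgeR, adjusted p = 0.0501). Pfkm was at 472, 21.6, 332 and 299 CPM (log2 fold change 3.14 ± 0.92, edgeR, adjusted p = 0.0824). In each of these genes the second rat stood apart at the bottom, and its skeletal muscle markers summed to 387 CPM against 22580.0 to 42420.0 CPM in the other 3 rats. The same rat had the highest Pgam1, Eno1 and Pfkl of its group.

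All 6 leukocyte-type members had log2 fold changes below 0 from day 3 to day 14, and 4 passed the test. Eno1 was at 296, 505, 290.3 and 317 CPM (log2 fold change over day 3 −2.21 ± 0.39, edgeR, adjusted p = 0.0376), Pgam1 at 142, 253, 142 and 155 CPM and Pfkl at 33.6, 54.6, 33.3 and 31.9 CPM. Pfkp, which had not passed the test on day 7, was at 29.6, 30.6, 30.6 and 27.1 CPM (log2 fold change −1.14 ± 0.17, edgeR, adjusted p = 0.0278). All of these values were below those of day 3. The part of muscle content in these falls was not tested. Hk3, at 21.3, 51.4, 26.8 and 32.4 CPM, was below every day 3 rat too but missed the threshold (log2 fold change −1.74 ± 0.42, edgeR, adjusted p = 0.0554). Slc2a3 was at 38.2, 85.2, 40.3 and 50.2 CPM, and neither its difference from day 3 nor that from day 7 passed the test (log2 fold change over day 7 0.96, edgeR, adjusted p = 0.384).

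Of the other members, Slc2a1 was at 17.3, 16.2, 16.5 and 25.3 CPM (log2 fold change over day 3 −2.82 ± 0.36, edgeR, adjusted p = 0.0258). Aldoc, the brain-type aldolase, fell from 33.2, 41.8 and 7.65 CPM on day 3 to 3.88, 2.75, 2.53 and 3.04 CPM on day 14 (log2 fold change −3.17 ± 0.55, edgeR, adjusted p = 0.0373). In the same day 3 rats, 9 oral epithelium markers summed to 3.66, 912 and 445 CPM, and on day 14 to 6.88 to 17.8 CPM. Their part in the fall of Aldoc was not tested. Pkm, pyruvate kinase, fell from 3216, 1423 and 1462 CPM to 816, 765, 605 and 702 CPM (edgeR, adjusted p = 0.0495).

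Between day 3 and day 14, 2 of 32 members rose and 8 fell in the sensory nerve+ group, against 2.69% of 15065 genes that rose and 3.09% that fell. Over these days 17 of 20 skeletal muscle markers rose, and 0 of 18 myeloid markers rose and 1 fell. The 8 members that fell were Slc2a1, Pfkl, Pfkp, Aldoc, Pgam1, Eno1, Pkm and Pdk1. The median log2 fold change was −0.79 over the members and 0.00 over all genes tested. Leaving out 1 rat changed the count of 10 in every case. Without day 14 replicate 2 it was 19 (6 higher and 13 lower). It was 2 without day 3 replicate 1, 4 without day 3 replicate 2, and 0 without day 3 replicate 3 or day 14 replicates 1, 3 or 4. Each of the 10 calls passed in 1 to 3 of the 7 fits. Without day 3 replicate 1 the log2 fold change of Pdk1 moved from −1.78 to −1.10. From day 7 to day 14, edgeR called 0 members, with 5 at an unadjusted p under 0.05, where 0.0202% of 14867 genes were called and 9.42% had an unadjusted p under 0.05. DESeq2 called 1.

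In the sensory nerve− group 3 of the 4 muscle-type isoforms rose between day 3 and day 7. Pgam2 rose from 1.39, 1.24, 1.35 and 4.18 CPM to 321, 46.4, 66.4 and 24.2 CPM (log2 fold change 5.81 ± 1.00, edgeR, adjusted p = 0.0166). Slc2a4 rose from 1.45, 0.997, 1.21 and 1.71 CPM to 212, 40.3, 17.1 and 8.36 CPM (log2 fold change 5.69 ± 1.11, edgeR, adjusted p = 0.0216), and Eno3 from 5.11, 10.3, 7.65 and 56.2 CPM to 1423, 197, 321 and 85.3 CPM (log2 fold change 4.68 ± 1.20, edgeR, adjusted p = 0.0458). Pfkm measured 22.5, 26.6, 48.4 and 25.9 CPM and then 905, 123, 152 and 59.3 CPM, just short of the threshold (log2 fold change 3.32 ± 0.88, edgeR, adjusted p = 0.0502). Replicate 1 of day 7 was the highest rat of the study in all 4 genes, with 59500.0 CPM of muscle markers, and replicate 4 was the lowest of its group, with 3339 CPM. On day 3, replicate 4 was highest for Pgam2, Slc2a4 and Eno3, and its muscle markers summed to 602 CPM against 31.1 to 51.4 CPM in the others.

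Of the leukocyte-type isoforms 3 fell over the same days. Eno1 fell from 1497, 1150, 1042 and 1880 CPM to 387, 628, 608 and 766 CPM (log2 fold change −1.23 ± 0.27, edgeR, adjusted p = 0.0288). Pfkl fell from 131, 95.8, 126 and 194 CPM to 26.5, 58.6, 57.4 and 67.9 CPM (log2 fold change −1.39 ± 0.31, edgeR, adjusted p = 0.0325), and Pgam1 from 587, 550.3, 430.1 and 764 CPM to 121, 246, 259.9 and 356 CPM (log2 fold change −1.26 ± 0.32, edgeR, adjusted p = 0.0442). None of these 3 genes overlapped between the days, and the share of all genes separated in this way is not given here. Pgk1, phosphoglycerate kinase, fell from 685, 643, 422 and 1026 CPM to 362, 289, 270.3 and 315 CPM (edgeR, adjusted p = 0.0299). Pdk1 fell from 32.5, 26.2, 30.6 and 53.6 CPM to 15.9, 20.3, 18.4 and 18.2 CPM (edgeR, adjusted p = 0.0332), and Pkm from 1690, 1372, 1554 and 2197 CPM to 1067, 929, 887 and 958 CPM (edgeR, adjusted p = 0.0353). Slc2a3, at 44.4, 28.7, 48.2 and 55.8 CPM and then 28.96, 41.7, 19.4 and 28.9 CPM, again did not pass (log2 fold change −0.58, edgeR, adjusted p = 0.198). Hk3 and Pfkp overlapped between the days, with Hk3 at 131, 129, 80.9 and 154 CPM and then 36.6, 103, 169 and 133 CPM.

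Of the 32 members, 3 rose and 6 fell in this comparison, against 3.68% of 14576 genes that rose and 6.77% that fell. Skeletal muscle markers rose in 16 of 20 and 0 of 18 myeloid markers passed the test. The sensory nerve− rats of day 7 are in a table of their own, so a difference between tables cannot be told apart from day 7 of that group. The count of 9 called members was 0 without day 3 replicate 1, 1 without day 3 replicate 2, 4 without day 3 replicate 3 and 3 without day 3 replicate 4. It was 2, 0 and 5 without day 7 replicates 2, 3 and 4. None of the 9 calls passed in all 8 fits. Without day 7 replicate 1 the log2 fold changes were 4.47 for Pgam2, 4.02 for Slc2a4 and 3.34 for Eno3, and without day 3 replicate 4 they were 6.43 for Pgam2 and 6.05 for Eno3.

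On day 14 of the sensory nerve− group 22 members had log2 fold changes over day 3 below 0, and 14 of them passed the test. Eno1 was at 393, 377, 284 and 523 CPM (log2 fold change over day 3 −1.87 ± 0.26, edgeR, adjusted p = 0.00365), Pgam1 at 194, 208, 144 and 276 CPM (−1.55 ± 0.24, edgeR, adjusted p = 0.00506) and Pfkl at 52.6, 53.7, 33.6 and 62.7 CPM (−1.48 ± 0.26, edgeR, adjusted p = 0.00764). Slc2a3 was at 39.8, 30.6, 68.2 and 115 CPM and overlapped day 3, the 1 leukocyte-type gene with a value above 0 here (0.46 ± 0.41, edgeR, adjusted p = 0.428). Hk3 fell from the values above to 18, 28.4, 20.2 and 49.8 CPM (log2 fold change −2.14 ± 0.34, edgeR, adjusted p = 0.00581), the only comparison in which it passed. Slc16a1, a lactate and pyruvate transporter, fell from 87.4, 91.2, 81.3 and 100.1 CPM to 36.1, 30.6, 39.2 and 28.1 CPM (log2 fold change −1.47 ± 0.15, edgeR, adjusted p = 0.00179). Ldha, the lactate dehydrogenase subunit that favours lactate, fell from 999, 1158, 655 and 1351 CPM to 367, 340.3, 374 and 449 CPM (log2 fold change −1.49 ± 0.23, edgeR, adjusted p = 0.00517). In Eno1, Pgam1, Pfkl, Hk3, Slc16a1 and Ldha no day 14 rat reached the lowest day 3 rat. The share of all genes separated in this way is not given here. Gapdh, often used as a reference gene, fell as well, by 1.03 on the log2 scale (edgeR, adjusted p = 0.0274).

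All 4 muscle-type isoforms had log2 fold changes over day 3 above 0 on day 14 of this group, and 2 passed the test. Slc2a4 was at 5.07, 9.70, 61.8 and 7.59 CPM (log2 fold change over day 3 3.93 ± 0.87, edgeR, adjusted p = 0.0175) and Pgam2 at 5.81, 17.8, 59.96 and 4.90 CPM (3.40 ± 0.91, edgeR, adjusted p = 0.0313). Eno3 was at 24.6, 60.7, 249.7 and 23.04 CPM (2.14 ± 1.04, edgeR, adjusted p = 0.166) and Pfkm at 23.8, 50.1, 146 and 30.1 CPM (0.97 ± 0.58, edgeR, adjusted p = 0.253), and neither passed. Replicate 3 was the highest rat in all 4 genes and had 11490.0 CPM of muscle markers, against 353 to 2070.0 CPM in the others.

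In total 2 members rose and 14 fell between day 3 and day 14 of the sensory nerve− group, against 8.89% of 14449 genes that rose and 14.6% that fell. The median log2 fold change was −0.98 over the members and −0.05 over all genes tested. Myeloid markers rose in 2 and fell in 2 of 18, muscle markers rose in 13 of 18, and the 12 erythroid markers had a median of 2.71 with 0 called. Scaling by the library total in place of TMM moved the median of all genes to −0.42 and gave 2 members that rose and 17 that fell. The count of 16 went to 10 without day 3 replicate 1, and 9 of the 16 calls passed in all 8 fits with 1 rat left out (Hk3, Pfkl, Pgk1, Pgam1, Eno1, Eno2, Ldha, Slc16a1 and Pdk1). Slc2a4 passed in 6 and Pgam2 in 4. Without day 14 replicate 3 their log2 fold changes were 2.41 and 2.17, and without day 3 replicate 4 that of Pgam2 was 4.01. From day 7 to day 14 edgeR called 0 members, where 0.0138% of 14447 genes were called. At an unadjusted p under 0.05 there were 12 members and 23.5% of all genes, and DESeq2 called 5 members. Without day 14 replicate 2, edgeR called 1.

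Across the 4 comparisons against day 3, 23 of 32 members were called at least once, where 29.7% of 15332 genes tested were. These comparisons share their day 3 rats within a nerve group. The 9 members never called were Slc2a3, Hk1, Hk2, the regulators Pfkfb1 to Pfkfb4, Ldhb and Pdk3. Hk1, the housekeeping hexokinase, lay between 49.2 and 135 CPM over all rats. In the sensory nerve+ group it was at 110.3 to 118 CPM on day 3. It was at 63.6 to 83.5 CPM on day 7 and 62.3 to 87.4 CPM on day 14. Its log2 fold changes over day 3 were −0.60 and −0.61, just short of the threshold (edgeR, adjusted p = 0.051 and 0.0549). In the sensory nerve− group both later days overlapped day 3. Hk2, the inducible hexokinase, lay between 9.53 and 77.1 CPM over all rats. Pfkfb3, which sets the level of the phosphofructokinase activator in inflammatory cells, ranged from 15.2 to 215 CPM with the highest value in sensory nerve+ day 3 replicate 1. That rat was the highest of the day 3 rats of its group for 22 of the 32 members.

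Ratios within each rat put the 2 isoform types side by side. They are log2 ratios of CPM + 0.5, a pseudocount that weighs most on Slc2a4 and Pgam2 of day 3, at 0.997 to 4.18 CPM. They compare rats but not the levels of the 2 genes, since counts were not divided by transcript length. The log2 ratio of Pgam2 to Pgam1 was −8.38 to −7.57 on day 3 of the sensory nerve+ group, −2.12 to −0.18 on day 7 and −5.74 to 0.51 on day 14. In the sensory nerve− rats it was −8.31 to −7.35, −3.85 to 1.40 and −5.68 to −1.26. Every rat of days 7 and 14 thus lay above every rat of day 3. From day 3 to day 7, averaged over the nerve groups, the log2 ratio rose by 6.63 for Pgam2 to Pgam1, 6.33 for Eno3 to Eno1, 5.26 for Slc2a4 to Slc2a3 and 4.34 for Pfkm to Pfkl. Each had p = 0.000408, the smallest that the two-sided exact permutation test within nerve groups can give, and an adjusted p of 0.00163 over 16 ratio tests.

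From day 3 to day 14 the log2 ratios rose by 5.42 for Pgam2 to Pgam1 (exact permutation test, adjusted p = 0.00392), 5.19 for Eno3 to Eno1 (adjusted p = 0.00435, exact), 3.50 for Slc2a4 to Slc2a3 and 3.32 for Pfkm to Pfkl (both exact, adjusted p = 0.0122). From day 7 to day 14 the 4 ratios differed by −1.76 to −1.02 and did not pass the test, with adjusted p from 0.146 to 0.3 (exact permutation test). All 8 differences against day 3 passed with each rat left out in turn.

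**Figure D3:**
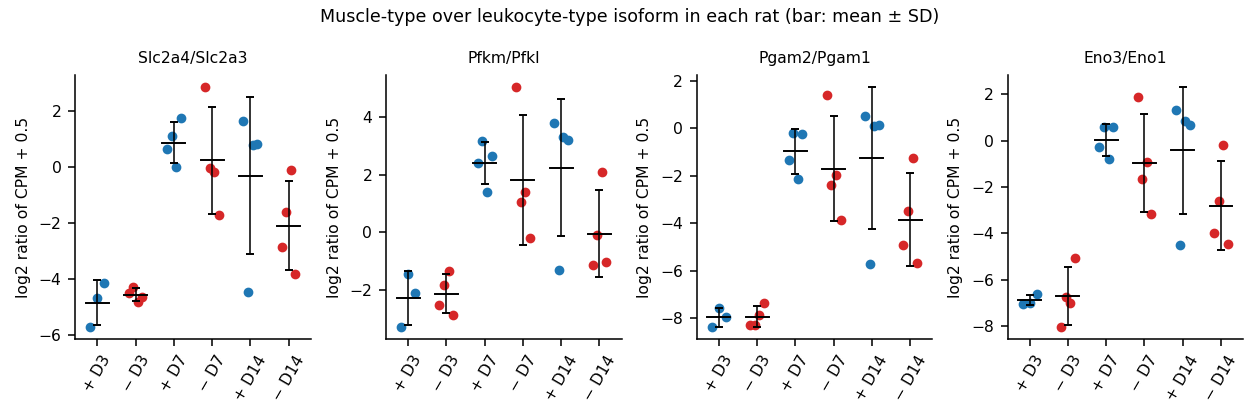
Log2 ratio of the muscle-type to the leukocyte-type gene of each pair, 1 point per rat, with the mean and SD of each nerve group and day. For Pgam2/Pgam1 the day 3 rats lie between −8.38 and −7.35, and sensory nerve+ day 14 replicate 2 lies apart from its group at −5.74.

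Pgam2 and Eno3 were high in the rats with high skeletal muscle markers and low in those with low ones. The 3 later rats with the lowest marker sums, at 353 to 490 CPM, were sensory nerve+ day 14 replicate 2 and sensory nerve− day 14 replicates 1 and 4. They had 4.25, 5.81 and 4.90 CPM of Pgam2, 21.9, 24.6 and 23.04 CPM of Eno3 and 3.30, 5.07 and 7.59 CPM of Slc2a4. The rat with the highest sum had 321 CPM of Pgam2 and 1423 CPM of Eno3. Slc2a4 was at 0.997 to 1.80 CPM in all day 3 rats, also in the rat with a marker sum of 602 CPM, and thus below the 3 later rats. Pfkm was at 21.6 to 48.4 CPM in all rats with a marker sum of 602 CPM or less. The myeloid markers of those 3 later rats summed to 8256, 4396 and 8052 CPM, above the 1897 to 4335 CPM of the day 3 rats. Averaged as log2 CPM over the markers, these later rats were at 7.778, 7.28 and 7.962, and the day 3 rats at 6.001 to 7.455. By that mean, sensory nerve− day 14 replicate 1 lay within the day 3 range. By log2 fold change, 12 of 18 markers were lower on day 14 than on day 3 and 6 higher in the sensory nerve+ group. In the sensory nerve− group, 10 were lower and 8 higher. The leukocyte-type genes of the 3 later rats differed among themselves and did not all follow the marker sums. The part of leukocyte content in these genes was not tested. Eno1 was at 505, 393 and 523 CPM against 1038 CPM in the lowest day 3 rat of either nerve group. Pgam1 was at 253, 194 and 276 CPM there, against a lowest day 3 value of 430.1 CPM, and Pfkl and Hk3 were likewise below every day 3 rat. Pfkp, at 30.6, 46.2 and 50.1 CPM, reached into its day 3 range of 44.1 to 82.6 CPM. Slc2a3, at 85.2, 39.9 and 114.9 CPM, lay within its day 3 range of 28.7 to 85.7 CPM or above it.

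**Figure D4:**
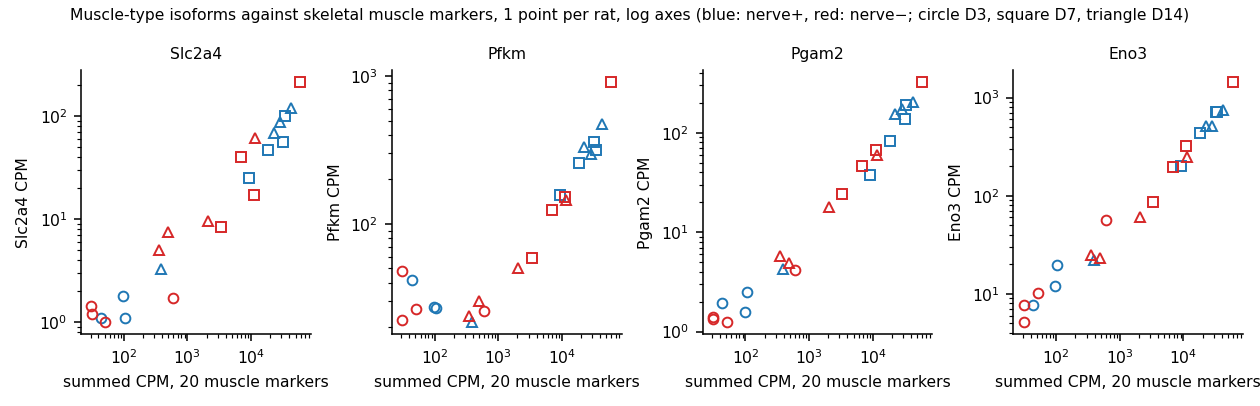
CPM of each muscle-type gene against the summed CPM of 20 skeletal muscle markers in 23 rats, both on log axes, with sensory nerve+ in blue, sensory nerve− in red, and circles, squares and triangles for days 3, 7 and 14. Rats of days 7 and 14 with marker sums of at least 2070.0 CPM lie on a rising band, while no day 3 rat exceeds 602 CPM and Pfkm is flat up to that sum.

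The transection itself gave no call among the members. Sensory nerve− and nerve+ rats were compared at each day, and edgeR called 0 of 32 members at day 3, day 7 and day 14, where 0% of 14695, 14716 and 14610 genes were called. At an unadjusted p under 0.05 there were 0, 1 and 6 members, and 0.83%, 1.46% and 9.32% of all genes. DESeq2 called 0 members at each day. Averaged over days, 0 members were called (0% of 15858 genes, smallest adjusted p of a member 0.912) and 0 had an unadjusted p under 0.05. The nerve effect differed between days in 0 members (0% of 15858 genes), with 1 at an unadjusted p under 0.05.

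On day 14 Pdk4 and the 4 muscle-type isoforms had the lowest log2 fold changes of the 32 members, and none passed the test. Pdk4 was at 103, 1.35, 70.7 and 129 CPM in sensory nerve+ rats and 1.31, 2.59, 34.9 and 6.38 CPM in sensory nerve− rats (log2 fold change −2.76 ± 1.35, edgeR, adjusted p = 0.519). Pgam2 had a log2 fold change of −2.58 ± 1.17 for sensory nerve− over nerve+ (edgeR, adjusted p = 0.519), from the values given above. Eno3 (−2.32 ± 1.12), Pfkm (−2.17 ± 0.92) and Slc2a4 (−1.72 ± 1.11) did not pass either, and the nerve groups overlapped in each. The 20 skeletal muscle markers had a median log2 fold change of −2.74 on the same day, and 0 passed the test. On day 3 all 19 hypoxia targets outside the members had log2 fold changes below 0, with a median of −0.60 and 0 called, as had 23 of the 32 members. Without sensory nerve+ day 3 replicate 1 it was 11 of 19 hypoxia targets, with a median of −0.065, and 7 of 32 members. On day 14 Hk2 was at 35.6, 22.2, 29.9 and 46.2 CPM in the sensory nerve+ rats and 16.8, 9.53, 12.4 and 26.2 CPM in the sensory nerve− rats (log2 fold change −1.07 ± 0.35, edgeR, adjusted p = 0.519). Tpi1, triosephosphate isomerase, was at 546, 139, 480.5 and 430.5 CPM and 114, 192, 246 and 209 CPM (log2 fold change −1.08 ± 0.43, edgeR, adjusted p = 0.519). The isoform ratios differed by −1.11 to −0.71 between the nerve groups, averaged over days, with adjusted p from 0.215 to 0.3 (exact permutation test within days).

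Genes next to the members in metabolism were counted from further lists. Of 15 glycogen genes tested between day 3 and day 7 of the sensory nerve+ group, 7 rose and 0 fell, with a median log2 fold change of 1.20. They included Ppp1r3a, the muscle glycogen-targeting subunit of protein phosphatase 1 (log2 fold change 9.63 ± 0.67, edgeR, adjusted p = 0.00137), and Pygm, muscle glycogen phosphorylase (7.28 ± 0.73, edgeR, adjusted p = 0.00365). Of 11 genes that carry pyruvate to acetyl-CoA, 2 rose, Pdpr and the mitochondrial pyruvate carrier Mpc1, by 0.77 and 1.12 on the log2 scale. Of 8 pentose phosphate genes, 0 passed, with a median of −0.48. Of 19 hypoxia targets outside the members, 4 fell and 0 rose, with a median of −1.06, among them Plod2 (log2 fold change −1.44, edgeR, adjusted p = 0.00643) and Ero1a (−2.81, edgeR, adjusted p = 0.0416). Of 18 further glycolytic genes, 1 fell, Adpgk (−0.82, edgeR, adjusted p = 0.0375). In the sensory nerve− group from day 3 to day 14, 2 of 15 glycogen genes rose and 2 fell, and 2 of 19 hypoxia targets rose and 9 fell, where 8.89% of all genes rose and 14.6% fell.

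In the macrophages Pgam2 had no reads and Slc2a4 very few, whereas the muscle-type Eno3 and Pfkm were detected. Pgam2, Ldhb and Pdk4 had 0 reads in all 11 samples, which allows up to 3 reads or 0.0419 to 0.0539 CPM per library, counting error only. Slc2a4 had 2 to 8 reads per sample. Levels are set side by side per kilobase of all annotated exons of a gene merged (GENCODE vM21, GRCm38/mm10). This length can exceed that of the transcript in use. In the LPS samples Pgam1 (chromosome 19, positions 41911923 to 41918660) had a median of 661 CPM per kb, and Pgam2 (chromosome 11, positions 5801640 to 5803733) had none. Eno1 (chromosome 4, positions 150236721 to 150248879) had 419 CPM per kb against 7.28 for Eno3 (chromosome 11, positions 70657202 to 70662513). Pfkl (chromosome 10, positions 77986947 to 78010083) had 34.4 CPM per kb against 2.59 for Pfkm (chromosome 15, positions 98092589 to 98132451). Slc2a3 (chromosome 6, positions 122727809 to 122801640) had 5.59 CPM per kb against 0.0303 for Slc2a4 (chromosome 11, positions 69942539 to 69948188). The leukocyte-type gene was thus the higher one in each pair. The highest of the glucose transporters was Slc2a1, at 123 CPM per kb.

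The highest members per kilobase were Pkm (median 934 CPM per kb), Gapdh (826), Pgam1 (661), Pgk1 (649.9), Ldha (614) and Aldoa (568). The merged exon lengths were 5001 bases for Pkm, 4133 for Gapdh and 1982 for Pgam1, and with other lengths the order may differ. The sample ranges of Pgam1, at 638 to 680.0, and Pgk1, at 626 to 676, overlapped, as did those of Pgk1 and Ldha (594 to 628), so these data set neither order. The hexokinases Hk2 and Hk3 were close, at 28.7 to 30.9 and 28.4 to 29.2 CPM per kb, and Hk1 was at 12.7 to 13.8. Reads of Eno1 may be shared with its near-identical copy Eno1b, which had 35942 to 48369 reads per sample, and Gapdh, Pgk1, Pgam1, Ldha and Tpi1 also have processed copies, so their levels are less certain.

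CGRP moved none of the members past the threshold. On log2(CPM + 0.5), limma tested 28 members and called 0, where 0.0222% of 13492 genes were called, and 4 members and 10.1% of all genes had an unadjusted p under 0.05. The member log2 fold changes lay between −0.17 and 0.18, with a median of 0.005. The 95% intervals of all 28 lay between −0.30 and 0.31, and those of 22 lay within 0.1 of 0. For Slc2a1 the interval was −0.04 to 0.03, with samples at 424 CPM (lowest), 433 (median) and 442 (highest) under LPS and 420.9, 439.5 and 441 with CGRP. For Pkm it was −0.05 to 0.02, and for Ldha −0.05 to 0.03.

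The 4 members at an unadjusted p under 0.05 had small differences. Eno2, the neuronal enolase, was at 6.42 CPM (lowest), 7.98 (median) and 8.59 (highest) under LPS and at 8.80, 8.35, 9.17, 9.22 and 8.36 CPM with CGRP (log2 fold change 0.18 ± 0.06, limma, adjusted p = 0.392). Aldoc was at 59.2 (lowest), 60.1 (median) and 61.0 CPM (highest) and then 64.4, 61.5, 61.7, 61.8 and 61.1 CPM (0.05 ± 0.02, limma, adjusted p = 0.392). The groups did not overlap for Aldoc, its lowest CGRP sample being just above the highest LPS sample. Pfkfb1 had a log2 fold change of −0.17 ± 0.06 (limma, adjusted p = 0.413) and Pdk1 of 0.04 ± 0.02 (limma, adjusted p = 0.489). Counts of calls were 0 under each alternative run for the macrophages. Further glycolytic genes (14 tested), glycogen genes (10), pentose phosphate genes (8) and hypoxia targets (17) had 0 calls, with medians of −0.004, 0.02, −0.008 and 0.02. The 17 myeloid markers in the mouse table summed to 6863 to 7168 CPM in both groups, with S100a9 at 0, and 20 muscle markers to 16.7 to 18.9 CPM, with 6 of them at 0.

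**Figure D5:**
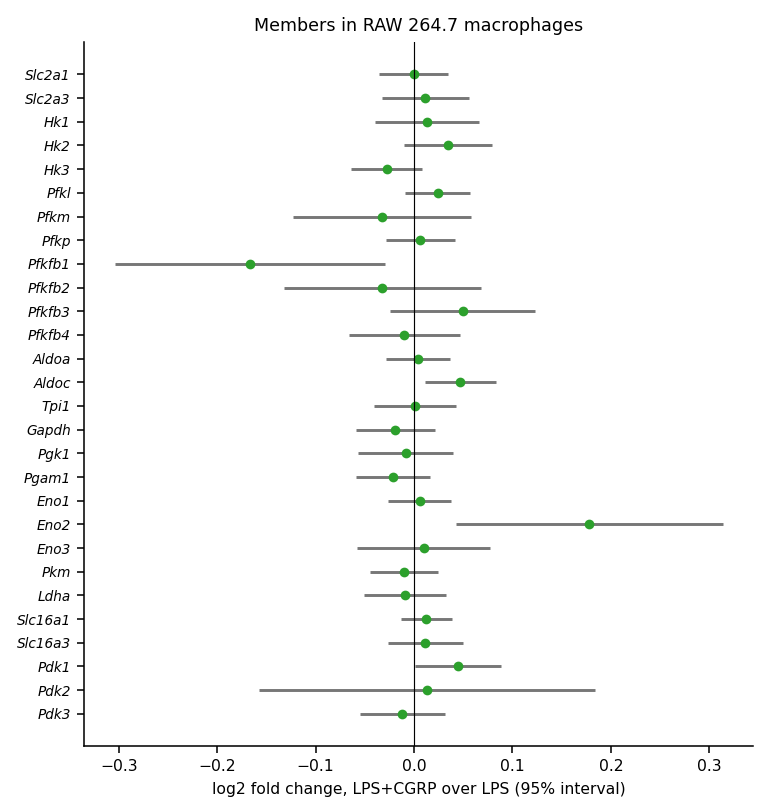
Log2 fold change of LPS+CGRP over LPS for the 28 members tested, with 95% intervals from limma (6 and 5 samples). The points lie between −0.17 and 0.18, and the widest intervals belong to the low genes Pdk2, Pfkfb1 and Eno2.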

How the data were processed

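RNA-seq was analysed from healing tissue of 23 rats and from 11 samples of RAW264.7 cells. For the rats the authors deposited estimated counts per gene (37.0% of values whole; HISAT, Bowtie2, mRatBN7.2; the counting program is not given in the sources used here), which were rounded. For the macrophages (Cutadapt, STAR, featureCounts, mm10) the deposited signal of each of 2 runs equalled reads times 1 factor per run (0.877 to 1.142). Dividing by it gave whole reads within 0.02 for 100% of values, and runs were summed.

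Rats were tested with edgeR 4.0.16 in R 4.3.3 (TMM, filterByExpr, quasi-likelihood), each comparison on its own groups, and nerve effects over days on all 23 rats. The SE of a rat fold change is its size divided by the square root of the F statistic of that test, an approximation. Macrophages were tested with limma 3.58.1 on log2(CPM + 0.5), which called 3 genes; edgeR on the recovered reads called 0. Adjusted p-values (Benjamini-Hochberg, all genes tested) under 0.05 were called. Isoform ratios were compared with exact permutation tests over all splits (numpy 2.4.6, checked against scipy 1.17.1), adjusted over 16. DESeq2 1.42.0, other filters, scalings, pseudocounts, runs, a replicate block and leaving out each sample were alternatives. In simulated counts for sensory nerve+ day 7 against day 3 (14832 genes), 74% of changes of 3 log2 units were recovered and 45.5% of 1.5.

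The members and lists were chosen with earlier results of these data known. Values in every rat are given for the 8 genes of the isoform pairs and for up to 3 further members per comparison and direction with the smallest adjusted p under 0.05. Pdk4 and Hk2 on day 14, Hk1, Tpi1, Gapdh, Pfkfb3 and Ldhb were singled out after their values were seen. From other lists, the 2 genes with the smallest adjusted p were named. Statements that days did not overlap describe the named genes only, without the share of all genes for which this held.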

Additional observations from a re-analysis of the deposited data

Results flagged for a closer look

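Among 167 groups of 4 to 6 samples, for 21 genes and 4 ratios, 21 held a sample far from the others (12.6%). Chance alone gives about 1 in 20 for independent groups. These were not independent, since many flags came from 1 rat and the ratios reuse the same genes, so no excess over chance can be read from the share. Sensory nerve+ day 14 replicate 2 was the lowest of 4 rats for Slc2a4 (3.30 CPM), Pfkm (21.6 CPM), Pgam2 (4.25 CPM), Eno3 (21.9 CPM), Ldha (429 CPM) and Pdk4 (1.35 CPM). The same rat was the highest for Pfkl (54.6 CPM), Pgam1 (253 CPM) and Eno1 (505 CPM). Its log2 ratios were −4.50 for Slc2a4 to Slc2a3, −1.32 for Pfkm to Pfkl, −5.74 for Pgam2 to Pgam1 and −4.50 for Eno3 to Eno1, each the lowest of its group.

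Slc2a1 was far above the other rats in sensory nerve+ day 14 replicate 4 (25.3 CPM), sensory nerve− day 3 replicate 4 (182 CPM) and sensory nerve− day 14 replicate 4 (51.2 CPM). Pgam2 was highest in sensory nerve− day 3 replicate 4 (4.18 CPM), and Pkm was lowest in sensory nerve− day 14 replicate 2 (488 CPM). Sensory nerve+ day 7 replicate 3 stood above its group for Aldoc (34.4 CPM) and Ldhb (771 CPM). In the macrophages, Aldoc was highest in LPS+CGRP replicate 1 (64.4 CPM).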

How the results depend on the processing

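The number of members called from day 3 to day 7 of the sensory nerve+ group was 18 with DESeq2 and 4 to 12 with 1 rat left out, against 11. From day 3 to day 14 of that group it was 20 with DESeq2, 21 with all 23 rats in 1 fit and 0 to 19 with 1 rat left out, against 10, and from day 7 to day 14 DESeq2 called 1. In the sensory nerve− group it was 15 with DESeq2 and 0 to 10 with 1 rat left out for day 7 over day 3, against 9, and 10 to 15 with 1 rat left out for day 14 over day 3, against 16. For day 14 over day 7, DESeq2 called 5, the fit of all 23 rats 2, and fits with 1 rat left out 0 to 1. The causes of these shifts were not tested. No alternative run called a member in the nerve or CGRP comparisons. Over all genes, CGRP gave 3 calls with limma, 0 with edgeR and 87 with DESeq2 on the recovered reads. Of 1702 alternative values for 115 results on single members, 1403 kept direction and side of the threshold, 211 lost the call, 88 gained it and 0 changed direction. Depth limits the macrophage values of Pgam2, Ldhb and Pdk4, which had no reads.

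With the replicate number as a block, 4, 0, 0 and 16 members were called for day 7 and day 14 over day 3 of the sensory nerve+ group and day 7 and day 14 over day 3 of the sensory nerve− group. Rats with the same number did not all deviate together (correlations of −0.283 to 0.415 for sensory nerve+ day 7 and day 3). For sensory nerve− and nerve+ rats of day 7 the correlations were 0.0309 to 0.314. The sources used here do not say whether rats with the same number share anything else, and so few pairs cannot decide it.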

Other observations

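Ldhb, the lactate dehydrogenase subunit of oxidative tissues and epithelia, was singled out after its values were seen. It measured 9.68, 513 and 17.1 CPM on day 3 of the sensory nerve+ group and 83.6, 69.7, 771 and 55.9 CPM on day 7, and 14.0, 43.9, 189 and 9.48 CPM on day 3 of the sensory nerve− group. The oral epithelium markers of the same rats summed to 3.66, 912 and 445 CPM, with 385 CPM in replicate 3 of day 7, and to 103, 271, 542 and 37.0 CPM. The rats with the highest Ldhb of each of these 3 groups had marker sums of 912, 385 and 542 CPM, the highest of their groups. In the other rat groups the highest Ldhb and the highest marker sum were in different rats. Sensory nerve− day 7 replicate 1 had 254 CPM of Ldhb with a marker sum of 3.09 CPM. Sensory nerve+ day 14 replicate 2 had the highest marker sum of its group, 17.8 CPM, and the lowest Ldhb, 16.5 CPM. Replicate 3 of sensory nerve+ day 3, with 445 CPM of markers, had only 17.1 CPM of Ldhb. The part of epithelium in these values was not tested.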
